A study of Mus musculus with 7 samples.

Results

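This account covers 37 genes of antioxidant defence and of the Nrf2 pathway, chosen by their symbols in a table of 31531 genes measured in muscle fibers of mouse fetuses. All 37 were found, and all 37 passed the filter on low values, a mean of at least 5 normalized counts over the 7 libraries. The fibers came from the epaxial muscles, along the back, of C57BL/6 fetuses at embryonic day 17.5 (E17.5). There were 4 WT and 3 dyW libraries, and the labels do not state whether each came from 1 fetus. The fetuses came from crosses of heterozygous dyW mice, and the dyW fetuses are homozygous for a disrupted *Lama2* gene, which encodes the α2 chain of laminin 211, in every cell of the body. Fibers were taken from a strainer after dispase and collagenase digestion, so other cells held back with them were lysed too. The values are normalized counts, that is, each library's reads on a gene after division by its size factor. The question addressed was whether the genes that handle reactive oxygen differ between WT and dyW fibers at the onset of the disease.

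Nrf2, encoded by *Nfe2l2*, is a transcription factor that the adaptor *Keap1* holds in the cytoplasm and hands over for degradation. Oxidants and electrophiles modify *Keap1*, after which Nrf2 accumulates, enters the nucleus and binds antioxidant response elements near genes for glutathione synthesis, thioredoxin reduction, quinone and heme breakdown and iron storage. Glutathione peroxidases and peroxiredoxins then reduce peroxides, and superoxide dismutases and catalase remove superoxide and hydrogen peroxide. Muscle fibers produce reactive oxygen in their mitochondria and during contraction, and much of their peroxide is cleared by these enzymes.

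Several libraries stand apart and touch the results on these genes. Reads counted on genes ranged from 470804 to 2220813 in the WT libraries and from 3663905 to 18297106 in the dyW libraries, so that 1 read was worth 2.05 to 5.33 normalized counts in WT and 0.0974 to 0.488 in dyW. *Lama2* held 90.6 to 110.6 normalized counts in WT, 4.29 in dyW1 and 6.07 in dyW2, but 139.7 in the third library, which is therefore named the library labelled dyW3. The summed level of 12 myofiber markers was 2762 to 79990 in WT, 10771 in dyW2 and 6546 in the library labelled dyW3, but 70.4 in dyW1, where *Ckm*, *Des*, *Myh3* and *Myh8* were at 0. WT1 held 415687 normalized counts of the cartilage collagen gene *Col2a1*, against 40.5 to 6462 in the other WT libraries and 0.126 to 195 in the dyW libraries. The summed level of 7 erythroid markers was 90.6 in WT1 and 130016 to 291249 in the other WT libraries, against 14.8, 28845 and 171958 in dyW1, dyW2 and the library labelled dyW3. The sum over 5 fibroblast markers was 3380 to 9904 in WT and 9797 to 22162 in dyW, that over 5 endothelial markers 328 to 525 against 555 to 1258, that over 9 macrophage markers 155 to 685 against 58.1 to 1023, and that over the 3 epithelial markers found 21.3 to 50.3 against 5.37 to 28.1. Single markers did not all follow these sums. In dyW1 *Col1a1* made up 8467 of the fibroblast sum of 9797, while *Col3a1* was at 232, against 581 to 4129 in WT. The endothelial marker *Pecam1* was at 67.9 in dyW2, against 119 to 283 in WT. The fibroblast marker *Pdgfra* and the endothelial marker *Emcn* were higher in every dyW library than in any WT library. The part of cell makeup in the differences given here was not tested. In bulk RNA fewer cells of a type and less RNA per cell cannot be told apart.

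The glutathione peroxidases are shown first by the codon on which their chemistry turns, since the 8 members of this family split in abundance between the groups. Selenocysteine, the reactive residue of several antioxidant enzymes, is encoded by TGA, which elsewhere is a stop codon. A script found an in-frame TGA inside the coding sequence of 6 of the 37 members, and each is shown with its flanks in lower case and that codon in capitals.
Gpx1: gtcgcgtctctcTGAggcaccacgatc
Gpx2: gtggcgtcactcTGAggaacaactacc
Gpx3: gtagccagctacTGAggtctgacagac
Gpx4: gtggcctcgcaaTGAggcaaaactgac
Txnrd1: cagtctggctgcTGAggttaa
Txnrd2: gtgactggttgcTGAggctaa
In the other 4 glutathione peroxidases the codon aligned with the TGA of *Gpx1*, in capitals below, is TGC or TGT, both cysteine codons.
Gpx5: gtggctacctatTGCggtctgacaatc
Gpx6: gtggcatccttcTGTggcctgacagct
Gpx7: gtagctagcgaaTGTggcttcacagac
Gpx8: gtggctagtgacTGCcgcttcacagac
On GRCm39 (GENCODE release M39) the codons in capitals lie at chr9:108216650-108216652 in *Gpx1*, chr12:76842030-76842032 in *Gpx2*, chr11:54798082-54798084 in *Gpx3*, chr10:79890571-79890573 in *Gpx4*, chr10:82731871-82731873 in *Txnrd1* and chr16:18296522-18296524 in *Txnrd2*. Those of the cysteine members lie at chr13:21475506-21475508 in *Gpx5*, chr13:21497947-21497949 in *Gpx6*, chr4:108260627-108260629 in *Gpx7* and chr13:113182195-113182197 in *Gpx8*. In *Txnrd1* and *Txnrd2* the TGA is the last codon but 1 before the stop codon.

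Promoters were searched for the core of the antioxidant response element, TGACNNNGC on both strands, in windows from 250 bases before to 50 bases after the gene start (RefSeq, GRCm38.p6). The letters of the core can overlap those of an AP-1 site (TGACTCA). Windows were at hand for 32 of the 37 members, and 7 of these held a core, 21.9%, beside 14.0% of 27025 genes with a window. Windows for *Sod3*, *Prdx6*, *Hmox1*, *Gclc* and *Gsr* were not analysed here. The 7 are printed below on the strand that carries the core, with the core in capitals and 10 bases on each side, because they are the members whose promoter window holds the letters that Nrf2 is known to bind.
Nfe2l2: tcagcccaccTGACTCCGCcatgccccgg
Srxn1: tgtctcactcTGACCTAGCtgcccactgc
Gclm: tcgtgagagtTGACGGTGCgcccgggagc
Prdx1: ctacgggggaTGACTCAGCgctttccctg
Txnrd1: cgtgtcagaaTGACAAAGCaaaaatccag
Sod1: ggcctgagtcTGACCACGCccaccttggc
G6pdx: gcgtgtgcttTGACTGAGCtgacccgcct
The cores lie at chr2:75704895-75704903 (*Nfe2l2*), chr2:152105552-152105560 (*Srxn1*), chr3:122245423-122245431 (*Gclm*), chr4:116685466-116685474 (*Prdx1*), chr10:82859114-82859122 (*Txnrd1*), chr16:90220706-90220714 (*Sod1*) and chrX:74428929-74428937 (*G6pdx*), all on GRCm38.p6. That of *Nfe2l2* is on the strand of its gene and the other 6 are on the opposite strand. A match is only a match of letters. Of the 6 members called lower in dyW in the comparison of the groups, 0 held a core in this window, and of the 7 that did, 0 were called in either direction by limma with Benjamini-Hochberg adjustment, at an adjusted P of 0.0751 to 0.748, beside 29.6% of all genes called lower and 1.0% called higher.

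The members differed widely in abundance. Per kb of exon, the ferritin genes *Ftl1* and *Fth1*, whose products store iron, led in WT with means of 1233 and 963 normalized counts per kb, ahead of *Prdx1* (246), *Gpx4* (157) and *Gpx1* (124). These means rest largely on WT3. Without it *Ftl1* (432) and *Fth1* (410.3) led, followed by *Gpx4* (69.96), *Prdx1* (62.8) and *Txn1* (52.4), and in WT4 *Fth1* lay above *Ftl1*. The lowest means over the 4 WT libraries were those of *Gclc* (1.85), *Srxn1* (2.03), *Sod3* (2.75) and *Hmox2* (2.92). In dyW, *Ftl1* (608), *Fth1* (348) and *Prdx1* (273) led again, followed by *Gpx8* (260.1) and *Txn1* (204). Without dyW2 *Txn1* (192) came next after the ferritin genes, ahead of *Prdx1* (172) and *Gpx8* (143). *Gpx2*, *Gpx5* and *Gpx6* had no read in dyW. Together the members took 0.10%, 0.152%, 0.515% and 0.0789% of all normalized counts in WT1 to WT4 and 0.353%, 0.407% and 0.425% in dyW1, dyW2 and the library labelled dyW3. WT3 lay above every dyW library in this share and the other 3 WT libraries lay below every dyW library. *Ftl1* and *Fth1* made up 19.2% to 60.1% of the members' summed counts in WT and 25.0% to 33.4% in dyW. At least 1 read was counted for 35 to 37 members in each WT library and for 34, 31 and 30 in dyW1, dyW2 and the library labelled dyW3, although the dyW libraries are the deeper ones. Of all 31531 genes, 25530 to 29594 had a read in the WT libraries. In dyW1, dyW2 and the library labelled dyW3 the counts were 17790, 14209 and 19360, so the drop was not particular to the members.

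**Figure D1:**
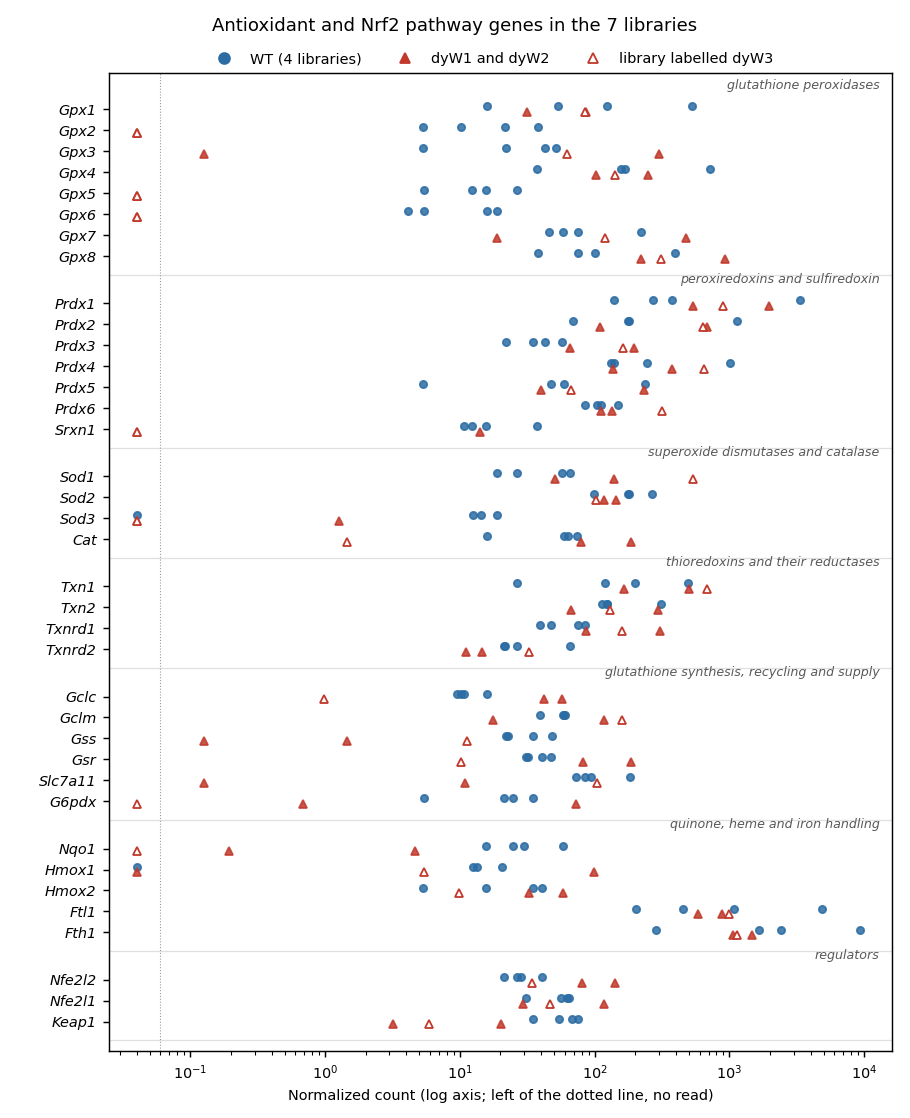
Normalized count (log axis) of each of the 37 members in each library, grouped by role; circles are the 4 WT libraries, filled triangles dyW1 and dyW2, open triangles the library labelled dyW3, and points left of the dotted line had no read. The groups overlap for most members, while *Gpx2*, *Gpx5* and *Gpx6* had no read in any dyW library.

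Among abundant members the extremes of the WT range often came from the same libraries. WT3 held the highest WT value for 15 of the 24 members with a mean of at least 50 normalized counts, and WT1 the lowest for 12 of them. *Fth1* had 283, 2395, 9225 and 1655 normalized counts in WT1 to WT4, and 1065 in dyW1, 1471 in dyW2 and 1137 in the library labelled dyW3. *Ftl1* had 203, 1084, 4878 and 450.0 normalized counts in WT1 to WT4, and 585 in dyW1, 877 in dyW2 and 985 in the library labelled dyW3. The 3 dyW values of each ferritin gene lay close together and inside the WT range, which spans 32.6-fold for *Fth1* and 24.1-fold for *Ftl1*. Over the 24 members the highest WT value was a median of 4.72 times the lowest. WT3 was also the library with the highest summed level of myofiber markers and WT1 the WT library with the lowest, and the part of fiber content in these values was not tested.

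Groups were compared with limma on log2(normalized count + 1). P-values were adjusted by Benjamini and Hochberg's method over the 25791 genes that passed the filter, and a gene is termed called at an adjusted P under 0.05 and an absolute log2 fold change over 1.5. On this scale the fold changes of genes with few reads come out too small. Of the 37 members, 6 were called lower in dyW (*Gpx2*, *Gpx5*, *Gpx6*, *Nqo1*, *Gss* and *Keap1*), 16.2% of the set, against 29.6% of all genes tested. For 5 of these the dyW mean lay under the filter value of 5, so that they passed it only through WT, where they are high. *Gpx2*, *Gpx5* and *Gpx6* had no read in dyW, *Nqo1* and *Gss* had dyW means of 1.62 and 4.27, and *Keap1* alone had a mean above the filter value in both groups. Its dyW mean rests largely on dyW1, with 20.2 there, 3.16 in dyW2 and 5.86 in the library labelled dyW3. None was called higher (0 of 37), against 1.0% of all genes. At an unadjusted P under 0.05, 9 members were lower and 2 higher, beside 41.5% and 2.81% of all genes. Voom on the recovered reads called 4 lower and 1 higher, beside 26.6% and 1.85%. It scales each library by its summed reads and not by the deposited size factor, so it changes the scaling as well as the method. Its median log2 fold change over the members was 1.04. The share of members called lower was thus below that of all genes, but the sets differ in abundance. A mean of at least 50 was reached by 24 of the 37 members and by 6111 of the 25791 genes. From 50 to 1000 only 5.0% of genes were called lower, and at or above 1000 it was 10.4%. With the libraries scaled to the same total, limma called 3 of 36 members lower (*Gpx2*, *Gpx5* and *Gpx6*) and 3 higher (*Gpx8*, *Prdx3* and *Sod1*), beside 17.9% and 4.56% of genes. After quantile normalization it called 0 in either direction, beside 0.318% and 0.0659%, and at an unadjusted P under 0.05 there were 1 lower and 4 higher, beside 6.86% and 8.59%. The median log2 fold change was 0.09 over the members and −1.99 over all genes tested, and it was 1.16 and −0.98 with the libraries scaled to the same total, and 0.20 and 0.06 after quantile normalization.

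Calls differed between classes of mean normalized count. The mean is taken over all libraries, so a fall in dyW itself moves a gene towards the lowest class. The split is thus not independent of the change. All 6 called members were among the 13 with a mean from 5 to 50 normalized counts, where 37.2% of all genes were called lower and 0.0813% higher. *Keap1*, with means of 57.7 in WT and 9.73 in dyW, is in this class through its dyW values. The other called members had WT means of 11.1 to 32.2. Of the 21 members from 50 to 1000, 0 were called in either direction by limma, beside 5.0% of genes called lower and 4.01% called higher in that range, and of the 3 at or above 1000 (*Prdx1*, *Ftl1* and *Fth1*) 0 were called, beside 10.4% lower and 1.89% higher. The median log2 fold change of members was −2.74 in the lowest class and 0.38 in the middle class, beside −2.58 and 0.21 over all genes of those classes. Every WT library lay above every dyW library for the 6 called members, beside 31.5% of all genes, and the reverse held for *Txnrd1* and *Prdx3*, beside 3.28%. An exact two-sided permutation test of 4 against 3 libraries cannot go below P = 0.0571, which is its value for each of these 8 members.

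**Figure D2:**
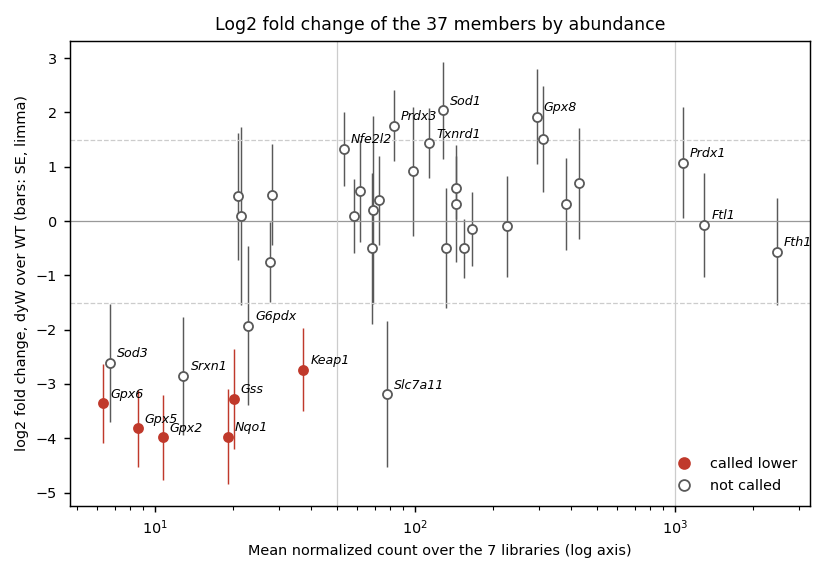
Log2 fold change of each member, dyW over WT, with its SE from limma, against its mean normalized count over the 7 libraries (log axis); vertical lines mark means of 50 and 1000, dashed lines log2 fold changes of 1.5 and −1.5, and filled points are called lower. The 6 called members all lie left of 50, where the values of *Gpx2*, *Gpx5* and *Gpx6*, with no read in dyW, depend on the pseudocount, and the 24 members to the right of it include none. The mean includes the dyW values, and *Keap1*, at 57.7 in WT, lies left of 50 through them.

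Leaving out single libraries changed these counts. Without WT1, 4 of 36 members were called lower and 0 higher (2 higher at an unadjusted P under 0.05), beside 27.4% and 0.782% of genes, with *Gss* and *Keap1* no longer called, *Gpx6* under the filter and *Sod3* called. Without WT4, 3 of 36 were called lower (*Gpx2*, *Gpx5* and *Nqo1*) and 0 higher (0 at an unadjusted P under 0.05), beside 22.1% and 0.321%. Without dyW1, where the summed level of the myofiber markers is lowest, 6 members were called lower and 2 higher, beside 31.2% and 1.09% of genes. *Srxn1* joined the lower ones (log2 fold change −4.15, adjusted P = 0.0109 by limma), *Gss* left them (−3.08, adjusted P = 0.0537 by limma), and *Prdx3* and *Sod1* were called higher. Without the library labelled dyW3, 7 were called lower and 2 higher, beside 41.4% and 1.47% of genes. *Slc7a11* joined the lower ones and *Nfe2l2* and *Gclc* were called higher. Without that library, every WT library lay above both dyW libraries for 8 members, beside 45.9% of genes, and below both for 6 (*Nfe2l2*, *Cat*, *Txnrd1*, *Gsr*, *Gclc* and *Prdx3*), beside 5.96%.

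**Figure D3:**
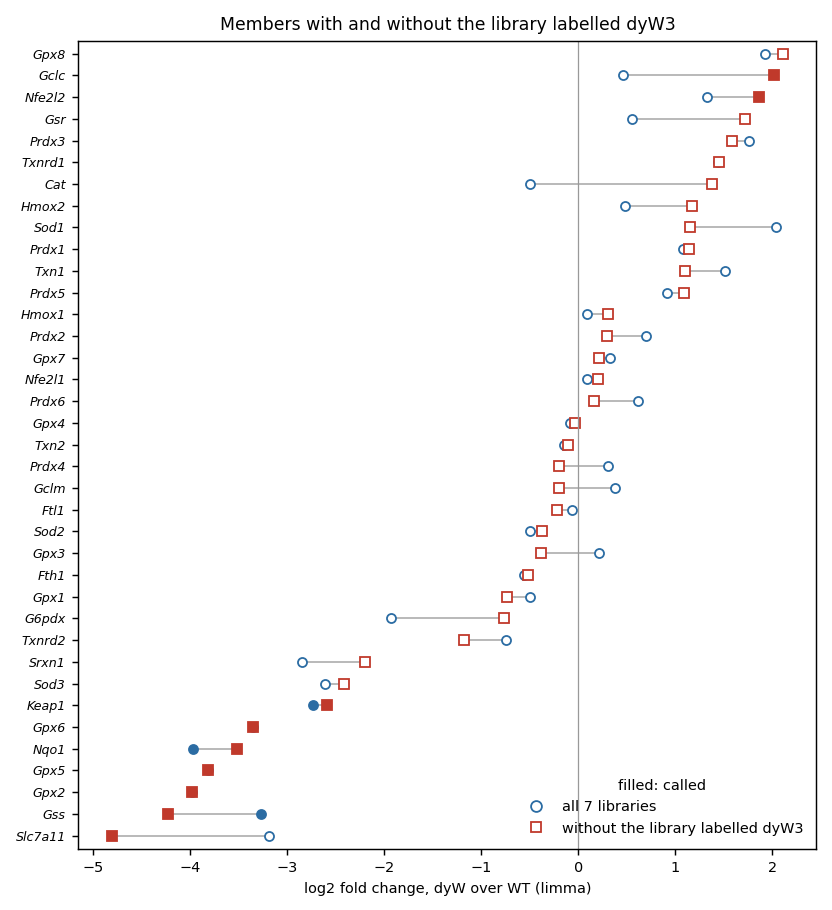
Log2 fold change of each member, dyW over WT, from limma with all 7 libraries (circles) and without the library labelled dyW3 (squares); filled symbols are called. *Gclc* and *Nfe2l2* become called to the right of 0 and *Slc7a11* to the left, and *Cat*, *Gpx3*, *Prdx4* and *Gclm* change sign without being called.

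Among the 8 glutathione peroxidases, which reduce peroxides at the expense of glutathione, 3 were called lower and 0 higher, beside 29.6% and 1.0% of all genes tested. *Gpx2*, the gastrointestinal form, had 5.33, 21.6, 10.3 and 37.8 normalized counts in WT1 to WT4, or 26 reads over the 4 WT libraries, and no read in dyW. *Gpx5*, the epididymal form, had 26.7, 5.39, 12.3 and 15.7 normalized counts in WT1 to WT4 (18 reads) and no read in dyW. *Gpx6*, an olfactory form, had 16, 5.39, 4.10 and 18.9 normalized counts in WT1 to WT4 (13 reads) and no read in dyW. The 3 genes thus rest on 26, 18 and 13 reads, and every WT library held at least 1 read of each. Where no read is counted, up to 3 reads per library are allowed for, which sets a floor of 0.712 normalized counts for the dyW mean and covers counting error only. The WT means of *Gpx2*, *Gpx5* and *Gpx6* were 26.3, 21.1 and 15.6 times that floor. Without the library labelled dyW3, whose 1 read is worth the most of the dyW libraries, the floor was 0.336 and they were 55.8, 44.7 and 33.0 times it. These ratios take the WT means, on few reads, and the deposited size factors as given, so they are no lower bounds on the difference. After quantile normalization the log2 fold changes of the 3 genes were −0.96, −0.47 and 0.00415. The fitted log2 fold changes of the 3 genes depend on the pseudocount and are no measure of size, at −7.20 to −6.52 with 0.1, −3.98 to −3.36 with 1 and −1.39 to −1.01 with 10. With a pseudocount of 10 or after quantile normalization none of the 3 was called by limma, and without WT1 or WT4 *Gpx6* fell under the filter on low values. *Gpx2* lies at chr12:76839107-76842326 on the minus strand and shares bases with *Fntb* on the other strand, and *Gpx5* (chr13:21470599-21476901, minus) and *Gpx6* (chr13:21496295-21503794, plus) are neighbouring paralogs, so their counts are uncertain where the strand setting or sequence likeness matters.

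The other 5 glutathione peroxidases were not called. *Gpx1*, the ubiquitous form, had 16, 124, 525 and 53.5 normalized counts in WT1 to WT4, and 31.4 in dyW1, 86.4 in dyW2 and 85 in the library labelled dyW3. *Gpx4*, which reduces lipid peroxides in membranes, had 37.3, 167, 720.0 and 157 normalized counts in WT1 to WT4, and 102 in dyW1, 250.2 in dyW2 and 143 in the library labelled dyW3. For both, the dyW libraries lay inside the WT range, and the log2 fold changes were −0.50 (SE 1.1) and −0.09 (SE 0.93). *Gpx3*, the secreted plasma form, had 5.33, 51.2, 43.1 and 22 normalized counts in WT1 to WT4, and 300.4 in dyW1, 0.126 in dyW2 and 62.5 in the library labelled dyW3. Its dyW values thus ran from under 1 read's worth in any WT library to above every WT library, and its log2 fold change was 0.21 (SE 1.73). *Gpx7* and *Gpx8* belong to the endoplasmic reticulum. *Gpx7* had 58.6, 45.8, 222 and 75.5 normalized counts in WT1 to WT4, and 18.7 in dyW1, 472 in dyW2 and 119 in the library labelled dyW3. *Gpx8* had 101, 75.5, 396 and 37.8 normalized counts in WT1 to WT4, and 221 in dyW1, 918 in dyW2 and 308 in the library labelled dyW3. Only 1 WT library, WT3, lay above dyW1 and the library labelled dyW3 for *Gpx8*, whose log2 fold change was 1.93 (SE 0.87, adjusted P = 0.120 by limma) and was called higher without WT3 (2.57, adjusted P = 0.0369 by limma, in a range of 0.0252 to 0.359 over its alternatives).

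The peroxiredoxins, thiol enzymes that remove most of the peroxide in a cell, and *Srxn1*, the sulfiredoxin that restores them after overoxidation, gave 0 calls of 7 in either direction by limma, beside 29.6% and 1.0% of all genes tested. Of the 7, 6 had a positive log2 fold change with the deposited scaling, with a median of 0.70 over the group. With the libraries scaled to the same total 6 were positive, with a median of 1.84, and after quantile normalization 5, with a median of 0.14. *Prdx3*, the mitochondrial peroxiredoxin, had 42.6, 35.1, 57.4 and 22 normalized counts in WT1 to WT4, and 65.5 in dyW1, 197 in dyW2 and 162 in the library labelled dyW3. Every dyW library lay above every WT library, and the means were 39.3 ± 14.8 (SD, n = 4) for WT against 141 ± 68 (SD, n = 3) in dyW. Its log2 fold change of 1.76 (SE 0.66) did not pass with all 7 libraries (adjusted P = 0.0707 by limma) and did without dyW1 (2.23, adjusted P = 0.0343), in a range of 0.0221 to 0.274 over its alternatives. *Prdx3* lies at chr19:60852489-60863017 on the minus strand, with no overlapping gene in the annotation.

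*Prdx1*, the most abundant peroxiredoxin in this set, is cytosolic. It had 139, 375, 3309 and 271 normalized counts in WT1 to WT4, and 532 in dyW1, 1979.8 in dyW2 and 899 in the library labelled dyW3. WT3 lay above all dyW libraries and the other 3 WT libraries below them. *Prdx2* ranged from 69.3 to 1141 in WT and from 109.9 to 680.2 in dyW, *Prdx4*, of the endoplasmic reticulum, from 132 to 1005 and from 136 to 649, and *Prdx5* from 5.33 to 238 and from 39.8 to 233. The dyW values of these 3 genes lay within the WT range. *Prdx6*, which uses glutathione and also acts as a phospholipase, had the smallest fold between its WT libraries among the peroxiredoxins, from 85.3 to 148, and 135 in dyW1, 112 in dyW2 and 317 in the library labelled dyW3. *Srxn1* was the exception in sign, with 37.3, 10.8, 12.3 and 15.7 normalized counts in WT1 to WT4, and 14 in dyW1, 0 in dyW2 and 0 in the library labelled dyW3. Its log2 fold change was −2.85 (SE 1.09, adjusted P = 0.0751 by limma), and it rests on 22 reads in WT.

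The superoxide dismutases and catalase gave 0 calls of 4 in either direction by limma, beside 29.6% and 1.0% of all genes tested. *Sod1*, the cytosolic copper and zinc enzyme, had 26.7, 18.9, 57.4 and 66.1 normalized counts in WT1 to WT4, and 50.6 in dyW1, 139.8 in dyW2 and 539 in the library labelled dyW3. The group means were 42.3 ± 23 (SD, n = 4) and 243 ± 260.2 (SD, n = 3), where the library labelled dyW3 holds most of the second. Its log2 fold change was 2.04 (SE 0.89, adjusted P = 0.110 by limma), and it was called higher without dyW1 (2.85, adjusted P = 0.0355 by limma), in a range of 0.0291 to 0.256 over its alternatives. *Sod2*, the mitochondrial manganese enzyme, had 267, 181, 98.5 and 176 normalized counts in WT1 to WT4, and 118 in dyW1, 145 in dyW2 and 102 in the library labelled dyW3, so that its 3 dyW values lay in the lower part of the WT range. *Sod3*, the secreted enzyme, had no read in WT1, 18.9, 14.4 and 12.6 in the other WT libraries, 1.27 in dyW1 and no read in dyW2 or the library labelled dyW3. Without WT1 it was called lower (log2 fold change −3.61, adjusted P = 0.00580 by limma, in a range of 0.00580 to 0.933 over its alternatives), beside −2.61 (SE 1.09, adjusted P = 0.0973 by limma) with all libraries. *Cat*, the peroxisomal catalase, had 16, 59.3, 73.8 and 62.9 normalized counts in WT1 to WT4, and 79 in dyW1, 185 in dyW2 and 1.47 in the library labelled dyW3. The dyW1 and dyW2 values of *Cat* lay above every WT library and that of the library labelled dyW3 below every WT library, and the log2 fold change was −0.50 with that library and 1.37 without it, neither of them called.

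The thioredoxins, small proteins that hand electrons to peroxiredoxins, and the reductases that recharge them from NADPH gave 0 calls of 4 in either direction by limma, beside 29.6% and 1.0% of all genes tested. *Txnrd1*, the cytosolic reductase and an Nrf2 target, had 85.3, 75.5, 39 and 47.2 normalized counts in WT1 to WT4, and 303 in dyW1, 86.1 in dyW2 and 159 in the library labelled dyW3. Every dyW library lay above every WT library, though dyW2 and WT1 differed by less than 1 normalized count. The means were 61.7 ± 22.2 (SD, n = 4) and 183 ± 110.1 (SD, n = 3), and the log2 fold change was 1.44 (SE 0.64, adjusted P = 0.118 by limma). It was called in none of the alternatives, over which its adjusted P ran from 0.0531 to 0.550 by limma or voom. *Txnrd1* lies at chr10:82669785-82733546 on the plus strand, where 4 annotated genes overlap it. *Txnrd2*, the mitochondrial reductase, had 21.3, 21.6, 26.7 and 66.1 normalized counts in WT1 to WT4, and 14.6 in dyW1, 11 in dyW2 and 32.7 in the library labelled dyW3. *Txn1* ranged from 26.7 to 488 in WT and from 164 to 679 in dyW, and the mitochondrial *Txn2* from 113 to 312 and from 67.2 to 297.

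Of the 6 genes for glutathione synthesis, recycling and supply, 1 was called lower and 0 higher, beside 29.6% and 1.0% of all genes tested. *Gss*, which joins glycine to γ-glutamylcysteine in the last step of glutathione synthesis, had 48, 35.1, 22.6 and 22 normalized counts in WT1 to WT4, and 1.46 in dyW1, 0.126 in dyW2 and 11.2 in the library labelled dyW3. Every WT library lay above every dyW library. The means were 31.9 ± 12.3 (SD, n = 4) and 4.27 ± 6.06 (SD, n = 3), and the log2 fold change was −3.27 (SE 0.92, adjusted P = 0.0252 by limma). The call was lost without any 1 of WT1, WT2, WT4, dyW1 or dyW2, where the adjusted P by limma was 0.0803, 0.0897, 0.0705, 0.0537 and 0.0693. The gene (chr2:155405096-155455505, minus strand) overlaps 5 annotated genes, among them *Acss2* and *Myh7b*, so reads of these cannot be told apart without the strand.

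*Gclc* and *Gclm* encode the catalytic and modifier subunits of glutamate-cysteine ligase, the rate-limiting enzyme of that synthesis. *Gclc* had 16, 10.8, 10.3 and 9.44 normalized counts in WT1 to WT4, and 56.8 in dyW1, 42.4 in dyW2 and 0.977 in the library labelled dyW3. With all libraries its log2 fold change was 0.46 (SE 1.17, adjusted P = 0.787 by limma), and without the library labelled dyW3 it was called higher (2.02, adjusted P = 0.0244 by limma, in a range of 0.0244 to 0.920 over its alternatives). Its WT values rest on 15 reads in all. *Gclm* had 58.6, 59.3, 39 and 59.8 normalized counts in WT1 to WT4, and 118 in dyW1, 17.7 in dyW2 and 158 in the library labelled dyW3, with dyW2 below every WT library and the other two above every one of them. *Gsr*, which regenerates reduced glutathione, had 32, 40.5, 30.8 and 47.2 normalized counts in WT1 to WT4, and 187 in dyW1, 81.7 in dyW2 and 10.3 in the library labelled dyW3. As for *Gclc* and *Cat*, dyW1 and dyW2 lay above all WT libraries of *Gsr* and the library labelled dyW3 below them all.

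*Slc7a11*, the cystine importer that supplies cysteine for glutathione, had 181, 94.4, 84.1 and 72.4 normalized counts in WT1 to WT4, and 10.8 in dyW1, 0.126 in dyW2 and 105 in the library labelled dyW3. The library labelled dyW3 lay inside the WT range and the other two far below it. With all libraries the log2 fold change was −3.19 (SE 1.34, adjusted P = 0.0986 by limma), and without the library labelled dyW3 it was −4.81 (adjusted P = 0.00564 by limma, in a range of 0.000227 to 0.333 over its alternatives) and called lower. *G6pdx*, which opens the pentose phosphate pathway and so supplies NADPH, had 21.3, 5.39, 24.6 and 34.6 normalized counts in WT1 to WT4, and 0.682 in dyW1, 73.1 in dyW2 and 0 in the library labelled dyW3. It was called lower without dyW2 (−3.87, adjusted P = 0.0253 by limma, in a range of 0.0253 to 0.927), the single dyW library with more than 1 normalized count of it.

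Of the 5 genes for quinone, heme and iron handling, 1 was called lower and 0 higher, beside 29.6% and 1.0% of all genes tested. *Nqo1*, a quinone reductase and a standard Nrf2 target, had 58.6, 29.7, 24.6 and 15.7 normalized counts in WT1 to WT4, and 0.195 in dyW1, 4.68 in dyW2 and 0 in the library labelled dyW3. Every WT library lay above every dyW library. The means were 32.2 ± 18.6 (SD, n = 4) and 1.62 ± 2.65 (SD, n = 3), and the log2 fold change was −3.97 (SE 0.88, adjusted P = 0.00844 by limma). The gene (chr8:108113835-108129934, minus strand) overlaps no other annotated gene. It rests on 39 reads in WT and 39 in dyW, of which 37 were in dyW2, and it was called lower without any 1 of the 7 libraries. The call was lost without WT1 and dyW1 together (−3.31, adjusted P = 0.0527 by limma) and with the libraries scaled to the same total (−3.45, adjusted P = 0.0529 by limma). It was also lost after quantile normalization (−1.03, adjusted P = 0.697 by limma) and with the replicate number as a block (−4.25, adjusted P = 0.0614 by limma). *Hmox1*, the inducible heme oxygenase, had 0, 13.5, 20.5 and 12.6 normalized counts in WT1 to WT4, and 98.6 in dyW1, 0 in dyW2 and 5.37 in the library labelled dyW3. Of its 1023 dyW reads, 1012 were in dyW1. *Hmox2*, the constitutive form, ranged from 5.33 to 40.5 in WT and from 9.77 to 58.4 in dyW. *Ftl1* and *Fth1*, given above, had log2 fold changes of −0.07 (SE 0.96) and −0.57 (SE 0.98), and the mouse genome holds many ferritin pseudogenes, which makes counts of uniquely mapped reads uncertain for them.

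Of the 3 regulators, *Keap1* was called lower, beside 29.6% of all genes tested, and *Nfe2l2* and *Nfe2l1* were not called. *Keap1* had 74.6, 53.9, 67.7 and 34.6 normalized counts in WT1 to WT4, and 20.2 in dyW1, 3.16 in dyW2 and 5.86 in the library labelled dyW3. Every WT library lay above every dyW library, with means of 57.7 ± 17.6 (SD, n = 4) and 9.73 ± 9.14 (SD, n = 3) and a log2 fold change of −2.74 (SE 0.76, adjusted P = 0.0236 by limma). The call was lost without any 1 of WT1, WT2, WT3, WT4 or dyW2, where the adjusted P by limma was 0.0682, 0.0762, 0.0571, 0.0509 and 0.0620. *Keap1* lies at chr9:21141026-21150679 on the minus strand and overlaps 2 annotated genes.

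*Nfe2l2* (chr2:75504739-75534985, minus strand) had 21.3, 40.5, 26.7 and 28.3 normalized counts in WT1 to WT4, and 141 in dyW1, 79.9 in dyW2 and 34.2 in the library labelled dyW3. Both dyW1 and dyW2 lay above every WT library and the library labelled dyW3 lay within the WT range. The means were 29.2 ± 8.08 (SD, n = 4) and 85.1 ± 53.7 (SD, n = 3). With all libraries the log2 fold change was 1.33 (SE 0.68, adjusted P = 0.167 by limma), and without the library labelled dyW3 it was called higher (1.87, adjusted P = 0.0398 by limma, in a range of 0.0398 to 0.486 over its alternatives). *Nfe2l1*, which encodes the related factor Nrf1, had 64, 62, 30.8 and 56.6 normalized counts in WT1 to WT4, and 118 in dyW1, 29.6 in dyW2 and 46.9 in the library labelled dyW3, and its log2 fold change was 0.09 (SE 0.68).

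A ratio of reads within 1 library does not depend on the size factors, and that of *Nfe2l2* to *Keap1* was formed after their values were seen. *Nfe2l2* had 4 reads against 14 of *Keap1* in WT1, 15 against 20 in WT2, 13 against 33 in WT3 and 9 against 11 in WT4, which gives ratios of 0.286, 0.75, 0.394 and 0.818. In dyW the reads were 1450 against 207, 632 against 25 and 70 against 12, which gives 7.0, 25.3 and 5.83 in dyW1, dyW2 and the library labelled dyW3. *Keap1* thus had more reads than *Nfe2l2* in all 4 WT libraries and fewer in all 3 dyW libraries, including the one with WT-like *Lama2*. Since the pair was picked for this pattern, no test was made. *Keap1* has a mean from 5 to 50 normalized counts, where the median log2 fold change of all genes was −2.58. *Nfe2l2* has a mean from 50 to 1000, where it was 0.21. Both means include the dyW values, and in WT alone they were 57.7 for *Keap1* and 29.2 for *Nfe2l2*. How many other pairs from these classes turn over in the same way was not counted, so the ratio is not shown to be particular to these genes.

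**Figure D4:**
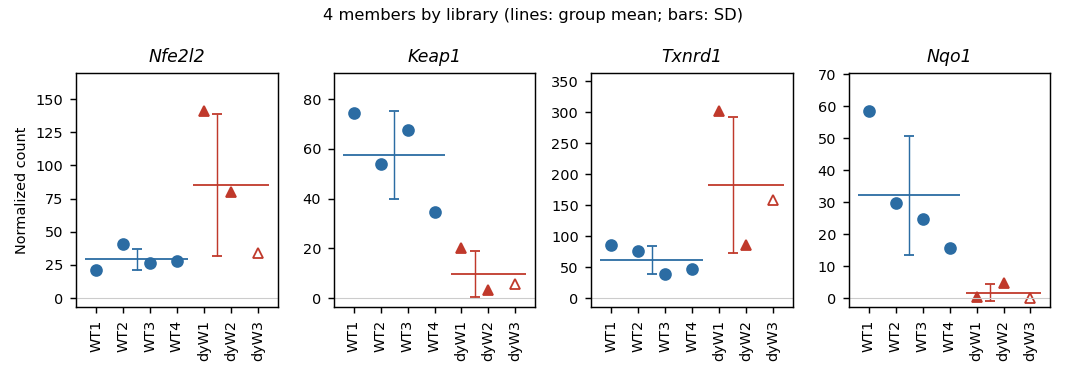
Normalized count of *Nfe2l2*, *Keap1*, *Txnrd1* and *Nqo1* in each library, with the group mean (line) and SD (bar); circles are WT, filled triangles dyW1 and dyW2, open triangles the library labelled dyW3. For *Keap1* and *Nqo1* all WT libraries lie above all dyW libraries, for *Txnrd1* below them, and for *Nfe2l2* the library labelled dyW3 lies among the WT libraries.

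To set members with many reads against those with few, reads per kb of exon were compared with the median over 1208 odorant and vomeronasal receptor genes, which are genes of sensory neurons. That median was 0.632 to 2.48 reads per kb in the WT libraries, 0 in dyW1 and dyW2 and 1.07 in the library labelled dyW3. In every WT library 19 of the 37 members lay above it, 18 of the 24 members with a mean of at least 50 and 1 of the 13 with a lower mean. The 1 was *Keap1*, also the single called member to do so, at 1.05 to 3.89 times the receptor level. The other called members had at least 1 WT library below that level, with 0.491 to 2.02 times for *Gpx2*, 0.481 to 4.73 for *Gpx5*, 0.589 to 3.47 for *Gpx6*, 0.984 to 6.33 for *Nqo1* and 0.548 to 2.06 for *Gss*. *Fth1* by contrast lay at 23.8 to 724 times the receptor level and *Ftl1* at 44.8 to 1005 times. *Nfe2l2* itself lay at 0.892 to 1.35 times in WT. In normalized counts per kb, the scale of the calls, the receptor level was 3.37, 6.69, 3.62 and 5.82 in WT1 to WT4, 0 in dyW1 and dyW2 and 0.525 in the library labelled dyW3, so that every WT library lay above every dyW library. The part of this in the calls of the members was not tested.

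**Figure D5:**
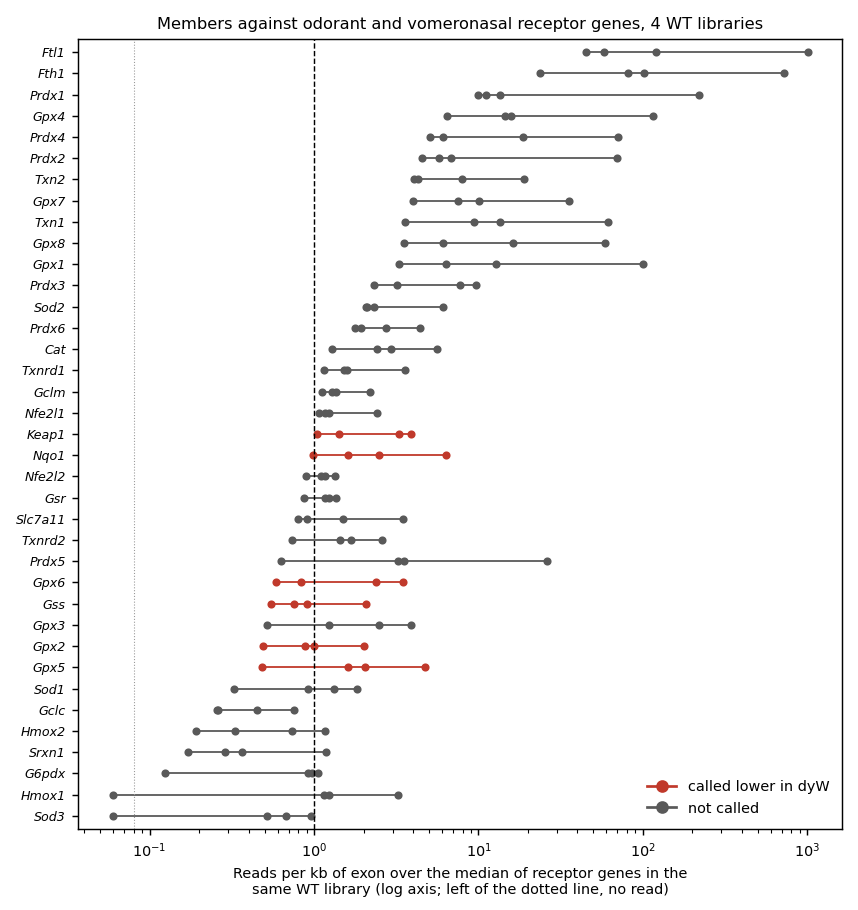
Reads per kb of exon of each member over the median of the receptor genes in the same WT library (log axis), 1 point per WT library and a line over their range; the dashed line marks a ratio of 1, and points left of the dotted line had no read. Members called lower in dyW lie around the dashed line, and *Ftl1*, *Fth1* and *Prdx1* lie furthest above it.

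Of 97 other genes of the pathway, grouped by role, 93 were found and 89 passed the filter on low values. In dyW 12 of them were called lower and 2 higher, 13.5% and 2.25%, beside 29.6% and 1.0% of all genes tested. Here too the sets differ in abundance, with a mean of at least 50 for 35 of the 89 genes and for 6111 of all 25791. Glutathione transferases gave 2 lower of 19, Nrf2 partners, repressors and adaptors 2 of 10, other Nrf2 targets 4 of 18, and methionine sulfoxide reductases, sestrins and further genes 4 of 25, with 0 higher in these groups by limma. Glutaredoxins and thioredoxin-related genes gave 1 higher and 0 lower of 11, and genes of NADPH supply 1 higher and 0 lower of 6. At an unadjusted P under 0.05, 20 of the 89 genes were lower and 6 higher, 22.5% and 6.74%, beside 41.5% and 2.81% of all genes. The balance depended on the scaling. With the libraries scaled to the same total, limma called 7 of 88 lower and 13 higher, beside 17.9% and 4.56% of all genes. After quantile normalization it called 0 in either direction, beside 0.318% and 0.0659%. Of the 12 called lower, 10 had a dyW mean under 5 and so passed the filter on low values only through WT, where they are high, and 4 of these had no read in any dyW library.

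The 6 most negative of the called genes had between 12.3 and 133 normalized counts in the WT libraries. *Aox1*, an aldehyde oxidase, had 53.3, 91.7, 34.9 and 75.5 normalized counts in WT1 to WT4, and 0 in dyW1, 0 in dyW2 and 0.488 in the library labelled dyW3 (log2 fold change −5.74, SE 0.69, adjusted P = 0.00372 by limma). *Nfe2*, the p45 relative of Nrf2 in blood cells, had 42.6, 16.2, 12.3 and 28.3 normalized counts in WT1 to WT4 and no read in dyW. *Gsta3*, a glutathione transferase, had 16, 18.9, 22.6 and 25.2 normalized counts in WT1 to WT4 and no read in dyW. *Bach2*, a repressor at antioxidant response elements, had 133, 51.2, 57.4 and 81.8 normalized counts in WT1 to WT4, and 49.2 in dyW1, 0 in dyW2 and 0 in the library labelled dyW3. *Abcc2*, an exporter of glutathione conjugates, had 37.3, 56.6, 32.8 and 62.9 normalized counts in WT1 to WT4, and 0 in dyW1, 0 in dyW2 and 11.7 in the library labelled dyW3. *Osgin1*, an oxidative stress-induced growth inhibitor, had 32, 29.7, 18.5 and 22 normalized counts in WT1 to WT4, and 0.292 in dyW1, 0 in dyW2 and 0.977 in the library labelled dyW3. The WT means of *Nfe2* and *Gsta3* were 34.9 and 29.0 times the floor used for *Gpx2*, or 74.0 and 61.5 times the floor without the library labelled dyW3. These ratios too take the WT means and the deposited size factors as given. After quantile normalization the log2 fold changes of the 2 genes were −1.44 and −1.18. The log2 fold changes of *Bach2*, *Abcc2* and *Osgin1* ran from −4.37 to −4.25. The call of *Bach2* was lost without any 1 of WT1 to WT4, dyW2 or the library labelled dyW3, at an adjusted P of 0.0767 to 0.111 by limma. That of *Abcc2* was lost with the libraries scaled to the same total (adjusted P = 0.0548 by limma), with voom (log2 fold change −2.60, adjusted P = 0.387) and without WT1 and dyW1 together (adjusted P = 0.0616 by limma), and that of *Osgin1* with voom (adjusted P = 0.0741).

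The 2 genes called higher were *Txnrd3* and *Idh1*, from different groups. *Txnrd3*, the thioredoxin glutathione reductase, had 5.33, 13.5, 14.4 and 22 normalized counts in WT1 to WT4, and 70.4 in dyW1, 57.9 in dyW2 and 87.9 in the library labelled dyW3 (log2 fold change 2.42, SE 0.68, adjusted P = 0.0252 by limma). *Idh1*, the cytosolic isocitrate dehydrogenase that produces NADPH, had 48, 80.9, 107 and 72.4 normalized counts in WT1 to WT4, and 177 in dyW1, 296 in dyW2 and 359.9 in the library labelled dyW3 (log2 fold change 1.83, SE 0.56, adjusted P = 0.0343 by limma). For both, every dyW library lay above every WT library, beside 3.28% of all genes. The call of *Txnrd3* was lost without WT2 (adjusted P = 0.0709 by limma) and that of *Idh1* without any 1 of WT1, WT2, WT4, dyW2 or the library labelled dyW3 (adjusted P = 0.0610 to 0.0845 by limma).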

How the data were processed

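RNA of 7 fetal muscle fiber samples was sequenced after SMART-seq2 cDNA synthesis and Nextera XT library preparation, without molecular identifiers. The authors used Cutadapt for trimming, RNA STAR for alignment to GRCm39 and FeatureCounts for counting uniquely mapped reads per gene, and deposited counts divided by 1 size factor per library, written with decimal commas, here called normalized counts. Tool versions, the strand setting and the annotation release are not given in the sources used here. A deposited table of the authors' DESeq2 comparison (fold changes, P-values) was not used. Groups follow the genotype in the labels. Division by the value of 1 read in each library gave back whole reads, with whole numbers for 100% of values (tolerance 0.1 read). Reads on genes ranged from 470804 to 18297106 per library.

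Genes with a mean of at least 5 were fitted on log2(normalized count + 1), with a pseudocount of 1, with limma 3.58.1 (lmFit, eBayes with trend; R 4.3.3) and Benjamini-Hochberg adjustment. The fit was also run on simulated counts, whose outcome is not reported here. Exact two-sided permutation tests used scipy 1.17.1 (Python 3.11.15, numpy 2.4.6, pandas 2.3.3, Biopython 1.88). Coordinates, exon lengths (99.2% of genes) and coding sequences are from GENCODE release M39 on GRCm39 and promoter windows from RefSeq on GRCm38.p6. Aligned codons stand in for protein sequences, which were not used here. A count test of the recovered reads was planned as an alternative and not run. P-values rest on the spread between these few libraries within each group, which limma moderates over all genes. Depth and cell makeup also differ between the libraries, so this is not a measure of the spread between fetuses alone.

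The members, the lists of other pathway genes and of cell type markers, the thresholds and most alternatives were chosen with earlier results of these data known. All members are named. Of the other pathway genes, at most the 6 most negative and 6 most positive called ones are named. The fit was repeated with other pseudocounts (0.1 and 10), other filters (none and a mean of at least 50), other scalings (the same total and quantile normalization), a replicate block, 1 library fewer at a time, an adjusted P under 0.01 and an absolute log2 fold change over 1. Voom and the joint omission of 2 libraries were chosen after seeing the data.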

Additional observations from a re-analysis of the deposited data

Results flagged for a closer look

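In a group of 4 libraries, a value was set apart when its gap to the nearest other value, divided by the group's whole range, exceeded the 95% critical value of Dixon's ratio, a limit that chance passes in about 1 in 20 groups. Of the 37 members, 7 had such a value among the WT libraries. In WT3 the gap took up 0.831 of the range for *Gpx7*, 0.925 for *Prdx1*, 0.897 for *Prdx2*, 0.870 for *Prdx4* and 0.946 for *Txn2*, each time as the highest WT value. WT3 was also the lowest WT library for *Gclm*, with a gap of 0.945 of the range. WT4 was the highest for *Txnrd2*, with 0.881. The 3 dyW libraries are too few for this rule.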

How the results depend on the processing

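Among all genes, the count called lower (7625) and higher (259) in dyW went to 3095 lower with a pseudocount of 10, to 3 and 0 with a mean of at least 50 (536 and 717 at an unadjusted P under 0.05), to 4473 and 1140 with libraries scaled to the same total, to 82 and 17 after quantile normalization, to 4830 and 17 at an adjusted P under 0.01, to 478 higher with voom and to 995 higher without dyW1 and the library labelled dyW3 together, where the lone dyW library is assumed to vary like the others. With 1 library left out at a time they ranged from 5357 to 10741 and from 78 to 381. Among the members, 6 lower and 0 higher became 3 lower with a pseudocount of 10, 0 and 0 with a mean of at least 50 (1 and 4 of 24 at an unadjusted P under 0.05), 3 and 3 with the same total, and 0 and 0 after quantile normalization (1 and 4). They became 1 higher with voom, 1 higher without WT1 and dyW1 together and 3 higher without dyW1 and the library labelled dyW3 together, and ranged from 3 to 7 lower and 0 to 2 higher with 1 library left out. Among the other pathway genes, 12 lower and 2 higher became 1 higher with a pseudocount of 10, 0 and 0 with a mean of at least 50 (4 and 4 at an unadjusted P under 0.05), 7 and 13 with the same total, 0 and 0 after quantile normalization (10 and 8), 7 and 0 at an adjusted P under 0.01, 7 lower with voom, 1 higher without WT1 and dyW1 together and 23 and 11 without dyW1 and the library labelled dyW3 together, and ranged from 9 to 17 and from 0 to 3 with 1 library left out. The cause of these shifts was not tested, beyond fewer genes tested under the stricter filter and fewer samples in the fits that leave libraries out.

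Of 686 values of members under alternatives, 560 kept their side of the threshold and their sign, 36 lost a call and 22 gained one. *Gpx3*, not called with all libraries, had a log2 fold change of −4.42 and was called lower without dyW1 and the library labelled dyW3 together, and *Gpx6* had 0.00415 after quantile normalization. In all, 20 members took the other sign under some alternative without a call in either fit. Against the 90th percentile of the receptor genes in place of their median, 11 members in place of 19 lay above in every WT library, and with 1 WT library left out the count ranged from 19 to 22.

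Replicate numbers are shared by the groups but no label says that they mark a litter or batch, and deviations of same-numbered libraries correlated with r = 0.147, −0.0494 and −0.0880 across genes, so they do not pair the samples, and 1 of the 3 numbers correlated best with itself. With the replicate number as a block, limma called 2 genes lower and 0 higher in all, with 0 members (8 lower and 1 higher at an unadjusted P under 0.05) and 0 other pathway genes in either direction (14 and 3), beside 8543 and 300 of all genes at that P. The planned edgeR and DESeq2 fits on the recovered reads were not run. Depth limits the low members most, since 1 read in WT1 is worth 5.33 normalized counts.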
